A study of Mus musculus with 18 samples.

Results

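Hypothalamic neuropeptides were represented by 9 precursor genes, Pmch, Hcrt, Trh, Oxt, Avp, Agrp, Pomc, Cartpt and Gal. They were taken by gene symbol from a table of 34745 genes, and 9 of 9 were found. The libraries were polyA RNA libraries from brain, kidney and gastrocnemius of male wild-type C57BL/6 mice, with 3 libraries per tissue and group and 18 in all. Treatment began at 18 months of age and tissues were taken at 23 months. The SeMSNs group received SeMSNs, a nano-selenium supplement, by gavage, and the old control group received a normal diet and the same volume of saline by gavage. The study design states a dose of 5 mg/kg from a 1 mg/mL preparation, with 2 doses in each interval of 2 days. The treatment protocol states 10 mg/kg daily. The sources give 6 to 10 mice per group and do not tie a library to a mouse, nor name the piece of brain that was extracted. Nothing states that libraries came from separate mice, so a p-value here refers to the spread of these libraries alone, which may be technical.

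The hypothalamus holds small, separate groups of neurons that are each defined by the peptide they make. A neuropeptide is made as a long precursor, sorted into secretory granules, cut by prohormone convertases and, for many peptides, amidated before release. Pmch (melanin-concentrating hormone) and Hcrt (hypocretin, also called orexin) are made by neurons of the lateral hypothalamus that act on feeding and arousal. Oxt (oxytocin) and Avp (vasopressin) are made by magnocellular neurons of the paraventricular and supraoptic nuclei and released from the posterior pituitary, and Trh (thyrotropin-releasing hormone) neurons of the paraventricular nucleus set the thyroid axis. Agrp and Pomc mark the arcuate neurons that promote and restrain feeding, and Cartpt and Gal are made in several hypothalamic nuclei and also outside the hypothalamus.

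The start regions of Pmch, Hcrt, Oxt and Avp are shown because these genes had the largest fold differences of the group means in brain. That of Cartpt is shown because it alone holds a full cyclic AMP response element. The other genes are described by their motif matches only. RefSeq promoter sequences (GRCm38.p6, 250 bases before to 50 bases after the start of each gene) were held for 8 of the 9 genes. Capitals mark matches, on either strand, to the TATA box core TATAAA, the cyclic AMP response element TGACGTCA, its half-site TGACG, the nuclear receptor half-site AGGTCA and the E-box CACGTG.
Pmch, chr10:88090822-88091121, plus strand: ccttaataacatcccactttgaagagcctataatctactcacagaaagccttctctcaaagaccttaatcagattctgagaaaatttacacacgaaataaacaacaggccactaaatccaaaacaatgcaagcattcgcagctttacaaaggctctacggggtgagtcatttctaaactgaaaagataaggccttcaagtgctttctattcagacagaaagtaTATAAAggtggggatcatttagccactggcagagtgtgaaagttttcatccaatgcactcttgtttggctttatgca
Hcrt, chr11:100762882-100763181, minus strand: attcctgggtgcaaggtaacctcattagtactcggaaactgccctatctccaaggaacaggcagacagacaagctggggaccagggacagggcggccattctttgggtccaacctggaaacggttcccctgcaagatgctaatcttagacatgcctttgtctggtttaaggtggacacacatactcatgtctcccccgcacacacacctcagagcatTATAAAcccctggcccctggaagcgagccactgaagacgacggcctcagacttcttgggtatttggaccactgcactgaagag
Oxt, chr2:130575919-130576218, plus strand: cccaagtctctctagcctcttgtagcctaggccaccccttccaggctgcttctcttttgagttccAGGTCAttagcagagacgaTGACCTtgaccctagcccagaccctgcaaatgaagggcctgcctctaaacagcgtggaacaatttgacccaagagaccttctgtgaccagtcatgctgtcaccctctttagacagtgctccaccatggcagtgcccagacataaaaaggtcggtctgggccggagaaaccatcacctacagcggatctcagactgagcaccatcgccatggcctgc
Avp, chr2:130582539-130582838, minus strand: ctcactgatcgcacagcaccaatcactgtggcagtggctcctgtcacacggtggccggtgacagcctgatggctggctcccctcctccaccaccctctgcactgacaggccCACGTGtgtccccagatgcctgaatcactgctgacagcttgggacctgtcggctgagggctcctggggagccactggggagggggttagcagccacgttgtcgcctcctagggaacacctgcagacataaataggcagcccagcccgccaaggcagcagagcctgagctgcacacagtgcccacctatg
Cartpt, chr13:99900634-99900933, minus strand: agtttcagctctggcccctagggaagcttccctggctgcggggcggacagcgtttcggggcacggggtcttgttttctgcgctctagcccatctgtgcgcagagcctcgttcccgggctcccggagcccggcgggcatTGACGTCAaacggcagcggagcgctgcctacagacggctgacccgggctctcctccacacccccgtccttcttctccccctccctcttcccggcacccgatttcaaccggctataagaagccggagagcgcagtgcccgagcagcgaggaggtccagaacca

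No motif of the 5 was found in every promoter. TATAAA was found in 3 of the 8 promoters, at −27 from the start in Pmch, −33 in Hcrt and −25 in Pomc, and in 13.6% of all 32851 promoters of the same length. TGACGTCA was found in the Cartpt promoter alone, at −112, and in 1.79% of all promoters. TGACG, which also matches inside TGACGTCA, was found in Trh, Cartpt and Gal, against 20.8% of all promoters. AGGTCA was found in Oxt, at −185 and −166, in Trh and in Pomc, against 16.3%. CACGTG was found in Avp alone, at −139, against 7.15%. These matches describe letters in a window and were not linked to the expression values.

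Oxt and Avp are neighbours on chromosome 2 (GRCm38), Oxt at 130576173 to 130577054 on the plus strand and Avp at 130580620 to 130582554 on the minus strand, with 3565 bases between them. Their transcripts share an identical coding run of 127 bases that spans exons 1 and 2 of 3 in both genes. The run is shown because reads that lie inside it cannot be assigned to 1 of the genes by sequence.
Shared Oxt and Avp coding run: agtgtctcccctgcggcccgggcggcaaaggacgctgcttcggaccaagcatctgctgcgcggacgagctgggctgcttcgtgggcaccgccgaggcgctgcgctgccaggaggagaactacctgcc
Of 30-base windows, 19.3% of the Oxt transcript and 17.9% of the Avp transcript were found in the other transcript, so the split of reads between them is uncertain. Pmch shares 435 exon bases with the opposite-strand gene Parpbp, which had 4 to 12 counts per brain library, and the sources used here do not state whether strand was used in counting. Agrp shares 114 exon bases with Gm5914 on the same strand and with Ctcf on the opposite strand, and its counts carry that uncertainty. Gm5914 had 9 to 22 counts per brain library.

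Brain libraries held 17504652 to 18602670 counts and libraries of all tissues 17357799 to 22146406. Levels are given as CPM, the counts scaled to a common library total, and 1 count was 0.0538 to 0.0571 CPM in brain. A gene without a count may have had a level of up to 0.161 to 0.171 CPM, the worth of 3 counts, a floor that covers counting error only. Some brain libraries stood apart within their group. Old control library 2 had low levels of all 9 peptide genes and of striatal markers, and SeMSNs libraries 1 and 2 held summed cerebellar markers at 4542 and 4194 CPM against 68.2 to 140 CPM in the other 4 libraries. The first principal component of brain, with 54.3% of the variance, separated SeMSNs libraries 1 and 2 from the other 4. In bulk RNA, fewer cells of a type and less RNA per cell cannot be told apart.

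In brain, all 9 peptide genes had a lower mean in the SeMSNs group, and no gene of the 9 passed the main test. The precursors of the lateral hypothalamus and of the magnocellular neurons had the largest fold differences of the group means. Pmch was 65.2 ± 46.6 CPM in old control and 0.148 ± 0.117 CPM in SeMSNs libraries (SD, n = 3). Hcrt, Oxt and Avp had no count in any SeMSNs library. Old control library 2 had no count of Oxt or Avp either, so the groups of these genes overlapped. Old control libraries 1 and 3 were high for all 9 genes and old control library 2 was low for all 9. The SeMSNs libraries were below old control libraries 1 and 3 for 9 of 9 genes, against 14.8% of all 16082 genes tested in brain, but those 2 libraries are set apart here because their peptide levels were seen to be high. The SeMSNs libraries were below all 3 old control libraries for 5 of 9 genes. Of all genes tested, 9.63% had every SeMSNs library below every control library. Oxt, Avp and Agrp were not among the genes tested, and the place of Agrp among the 5 rests on single counts.

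**Figure D1:**
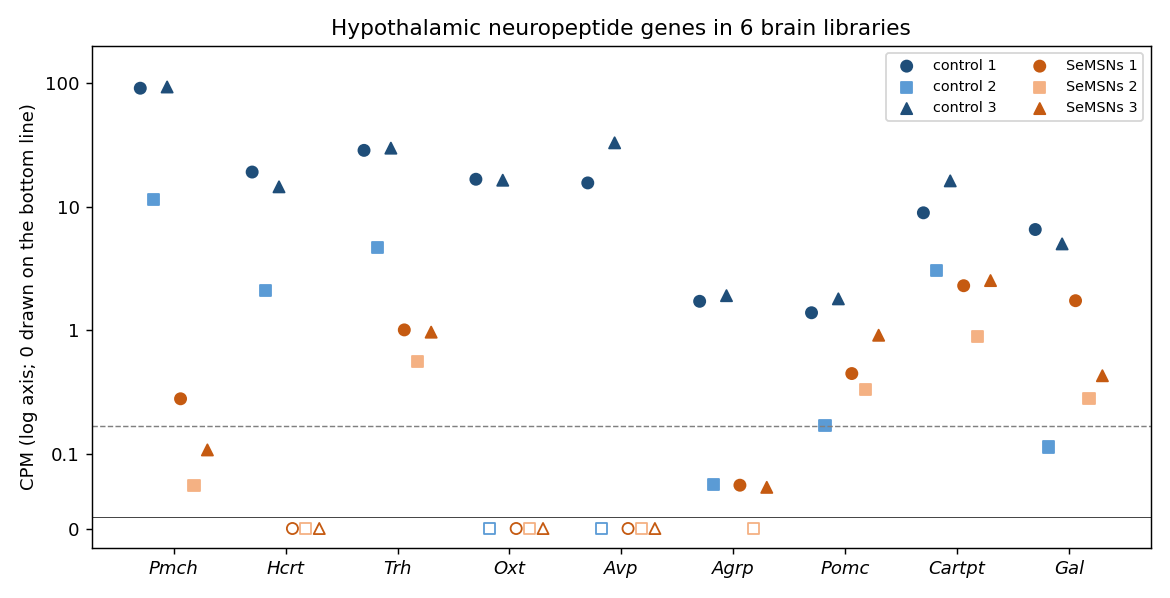
CPM of the 9 neuropeptide genes in each of the 6 brain libraries on a log axis, with a colour and shape for each library, open symbols at 0 below the axis break for libraries without a count, and a dashed line at the 3-count floor. Old control libraries 1 and 3 are the highest points of every gene, and old control library 2 lies level with or below SeMSNs libraries for Oxt, Avp, Agrp, Pomc and Gal.

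Pmch, the precursor of melanin-concentrating hormone, had 1639, 200 and 1655 counts in old control libraries 1, 2 and 3 and 5, 1 and 2 counts in SeMSNs libraries 1, 2 and 3. These were 91.0, 11.4 and 93.1 CPM against 0.280, 0.0559 and 0.108 CPM. The groups did not overlap, and even the low old control library was far above the highest SeMSNs library. The pooled control-to-SeMSNs ratio was 445, with an exact 95% interval of 226 to 1033 that covers counting error only. By the edgeR quasi-likelihood test the log2 fold change was −8.74 ± 1.10 (SE), at an unadjusted p of 0.000127 and a Benjamini-Hochberg adjusted p of 0.179 over all genes. Adjusted p over the 13 alternatives ran from 3.21e-21 to 0.543, and 4 of them were under 0.05: 0.00914 without old control library 2, 0.0127 without SeMSNs library 3, 0.0407 with the replicate number as a block and 3.21e-21 by DESeq2.

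Hcrt, the hypocretin precursor, had 343, 37 and 258 counts in old control libraries (19.1, 2.11 and 14.5 CPM) and 0, 0 and 0 counts in SeMSNs libraries. Every SeMSNs library was at 0 and every old control library was above its floor, although library 2 was the lowest of the controls here too. With 3 counts per library as the floor, the mean was at least 71.8-fold lower in SeMSNs libraries. The edgeR quasi-likelihood adjusted p was 0.255 (unadjusted 0.00194), and it ran from 8.23e-10 to 0.605 over the 13 alternatives, with 0.0272 without SeMSNs library 3 and 8.23e-10 by DESeq2 under 0.05. Pmch and Hcrt passed the filter on low counts through their old control libraries alone.

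The magnocellular precursors were present in 2 of the 6 brain libraries. Oxt had 301, 0 and 291 counts in old control libraries and 0 in each SeMSNs library. Avp had 280, 0 and 585 counts in old control libraries and 0 in each SeMSNs library. Old control library 2 therefore could not be told from the SeMSNs libraries for either gene at this depth, where a count of 0 allows up to 0.171 CPM. In CPM, Oxt was 16.7, 0 and 16.4 and Avp 15.6, 0 and 32.9 in old control libraries. Against the 3-count floor the old control mean was at least 66.6-fold above SeMSNs for Oxt and at least 97.5-fold above for Avp, and both means rest on old control libraries 1 and 3. Neither gene passed the filter on low counts, and without the filter the edgeR quasi-likelihood adjusted p was 0.301 for each. By DESeq2 the adjusted p was 0.131 for Oxt and 0.105 for Avp.

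Trh, the precursor of thyrotropin-releasing hormone, had 515, 82 and 529 counts in old control libraries and 18, 10 and 18 in SeMSNs libraries. This was 28.6, 4.68 and 29.8 CPM against 1.01, 0.559 and 0.968 CPM, so the groups did not overlap and the SeMSNs libraries lay close to each other. The pooled ratio was 25.0 (95% interval 18.6 to 34.3, counting error only), and edgeR gave a log2 fold change of −4.65 ± 0.751 (SE) and an adjusted p of 0.229 by the quasi-likelihood test. Over the 13 alternatives the adjusted p ran from 8.23e-10 to 0.586, with 0.0168 without old control library 2, 0.0220 without SeMSNs library 3 and 8.23e-10 by DESeq2.

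The arcuate feeding pair was weakly represented even in the old control libraries. Agrp, an antagonist of the brain melanocortin receptors, had 31, 1 and 34 counts in old control libraries and 1, 0 and 1 in SeMSNs libraries. The single counts of old control library 2, SeMSNs library 1 and SeMSNs library 3 differ in CPM (0.0571, 0.0560 and 0.0538) only through their library totals, so the absence of overlap for Agrp is within counting error. The pooled ratio for Agrp was 33.7, with a 95% interval of 8.96 to 284. Agrp did not pass the filter, and without it the edgeR log2 fold change was −4.83 ± 1.30 (SE) at a quasi-likelihood adjusted p of 0.285. By DESeq2 the adjusted p of Agrp was 0.0347.

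Pomc, the precursor of the melanocortins and of beta-endorphin, had 25, 3 and 32 counts in old control libraries and 8, 6 and 17 in SeMSNs libraries. The SeMSNs libraries lay between old control library 2 and the other old control libraries, so the groups overlapped. The means were 1.12 ± 0.847 CPM in old control and 0.566 ± 0.307 CPM in SeMSNs libraries (SD, n = 3). Its log2 fold change of −0.99 ± 0.787 (SE) had an edgeR quasi-likelihood adjusted p of 0.564 and a range of 0.275 to 0.945 over the alternatives. Beside these values, pituitary markers were near their floor: they summed to 1.37 to 3.77 CPM in old control and 0.896 to 3.44 CPM in SeMSNs libraries, 4 to 9 of the 10 genes were at 0 in each library, and the pituitary hormones Gh and Prl were at or under 0.5 CPM.

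Cartpt, the CART peptide precursor, had 161, 53 and 288 counts in old control libraries and 41, 16 and 47 in SeMSNs libraries. This was 8.94, 3.03 and 16.2 CPM against 2.30, 0.894 and 2.53 CPM. The groups did not overlap, but old control library 2 lay just above SeMSNs libraries 1 and 3. The pooled ratio was 4.92 (95% interval 3.98 to 6.14, counting error only). The edgeR log2 fold change was −2.31 ± 0.653 (SE) with a quasi-likelihood adjusted p of 0.255, and 1 of 13 alternatives, DESeq2 at 0.0126, was under 0.05 in a range of 0.0126 to 0.612.

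Gal, the galanin precursor, had 118, 2 and 89 counts in old control libraries and 31, 5 and 8 in SeMSNs libraries. In CPM these were 6.55, 0.114 and 5.01 against 1.74, 0.280 and 0.430, with old control library 2 below every SeMSNs library. Gal was therefore 1 of the 4 genes whose groups overlapped, with Oxt, Avp and Pomc. Its log2 fold change of −2.28 ± 1.19 (SE) had an edgeR quasi-likelihood adjusted p of 0.394 and a range of 0.276 to 0.658 over the alternatives.

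**Figure D2:**
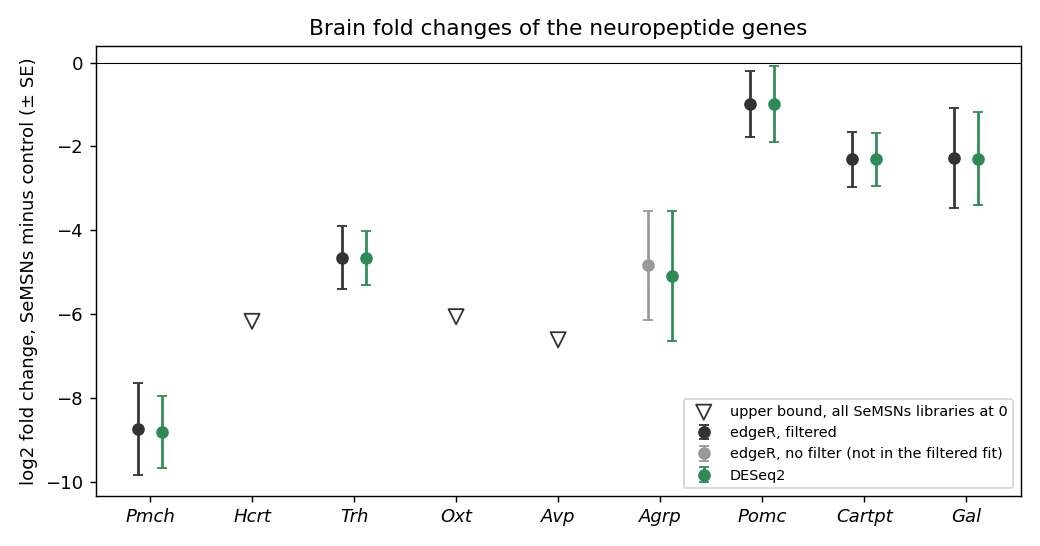
Log2 fold change of SeMSNs minus old control in brain (y axis) for each neuropeptide gene, by edgeR (dark, grey for Agrp in the fit without a filter) and DESeq2 (green), with bars for the standard error and triangles for the 3-count upper bounds of Hcrt, Oxt and Avp, which had no count in any SeMSNs library. Every value lies below 0, by edgeR from −8.74 for Pmch to −0.99 for Pomc, and no gene passed an adjusted p of 0.05 by its quasi-likelihood test.

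Counted over the gene group, 6 of the 9 genes passed the filter on low counts, 0 passed the adjusted threshold in either direction, and 4 were lower at an unadjusted p under 0.05 by edgeR. Of all genes tested in brain, 0% passed in the lower direction, 0.00622% passed in the higher direction, 8.03% were lower and 7.4% higher at the unadjusted threshold, and 48.8% had a negative log2 fold change. By DESeq2, 5 of the 9 genes were lower at an adjusted p under 0.05, and 0 higher, against 2.01% of all genes lower and 1.82% higher. The median log2 fold change of the 6 tested genes was −3.48, against 0.01 over all tested genes, and it was −4.83 over all 9 with Hcrt, Oxt and Avp at their bounds. Genes that passed the filter through the old control libraries had to differ, so these medians describe the group and do not test it.

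The genes differed in how far old control library 2 departed from old control library 1. Set as a percentage of the CPM in old control library 1, library 2 held 33.9% of Cartpt, 16.4% of Trh, 12.5% of Pmch, 12.3% of Pomc, 11.1% of Hcrt, 3.32% of Agrp and 1.74% of Gal. Oxt and Avp were at 0, which allows at most 1.02% and 1.10%. Old control library 3 was at 76.2% (Hcrt) to 212% (Avp) of library 1. For each of the 9 genes library 2 was further from library 1, as a ratio, than library 3 was.
In SeMSNs libraries 1, 2 and 3 Pmch was at 0.307%, 0.0614% and 0.118% of old control library 1. Pomc kept more, at 32.3%, 24.2% and 65.8%, and Cartpt was at 25.7%, 10.0% and 28.2%. Trh was at 3.52%, 1.95% and 3.38%. Gal was at 26.5%, 4.26% and 6.56%, with SeMSNs library 1 well above the other SeMSNs libraries. Without SeMSNs libraries 1 and 2, which stood apart by cerebellar markers, the log2 fold changes from SeMSNs library 3 alone were −9.13 for Pmch, −4.40 for Trh, −3.13 for Gal, −1.86 for Cartpt and −0.27 for Pomc. In that fit the SeMSNs arm is 1 library, assumed to vary like the old control libraries, so its p-values do not show whether these differences hold.

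Levels of different genes are compared here per transcript length, as FPKM. In old control libraries Pmch was the highest at 87.0 ± 62.2 FPKM (SD, n = 3), followed by Avp at 28.0 ± 28.5, Oxt at 20.5 ± 17.8, Trh at 15.2 ± 10.2, Hcrt at 10.9 ± 8.01, Cartpt at 10.7 ± 7.55, Gal at 5.47 ± 4.72, Pomc at 1.11 ± 0.841 and Agrp at 1.07 ± 0.884 FPKM. The SD of every gene was of the order of its mean, in part because old control library 2 was low for all of them, so neighbours were also compared within libraries. Pmch was above Avp, Trh above Hcrt and Cartpt above Gal in 3 of 3 old control libraries. The other 5 neighbouring pairs did not keep 1 order in all 3 libraries. With 3 libraries no test of these orders was made. Pmch made up 50.6%, 62.5% and 45.1% of the summed FPKM of the 9 genes in old control libraries 1, 2 and 3, and 5.61%, 3.35% and 2.71% in the SeMSNs libraries. Cartpt made up 4.26%, 14.2% and 6.73% in old control and 39.4%, 45.9% and 54.6% in SeMSNs libraries. Gal made up 36.6%, 17.6% and 11.4% in SeMSNs libraries, so that in library 1 Cartpt and Gal were close, at 41 and 31 counts. Pmch had the largest share in each old control library, old control library 2 included.

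Count ratios between pairs of the genes were compared in libraries where neither gene had a low count. Pmch to Hcrt was 4.78 (95% interval 4.25 to 5.38), 5.41 (3.79 to 7.90) and 6.41 (5.62 to 7.34) in old control libraries 1, 2 and 3. Library 2, with far fewer counts of both genes, had a ratio between those of the others, and the intervals of libraries 1 and 3 did not overlap. Pmch to Cartpt was 10.2 (8.65 to 12), 3.77 (2.78 to 5.21) and 5.75 (5.07 to 6.54), with library 2 below both others. Oxt to Avp was 1.07 (0.911 to 1.27) in old control library 1 and 0.497 (0.431 to 0.574) in library 3, and the intervals did not overlap. Agrp to Pomc was 1.24 (0.709 to 2.19) in library 1 and 1.06 (0.636 to 1.78) in library 3, with overlapping intervals. The intervals cover counting error only.

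Of 22 further hypothalamic neuropeptide precursors, 10 passed the filter, 0 passed the adjusted threshold, and all 10 had a negative log2 fold change, with a median of −1.33 against 0.01 for all genes. Unadjusted, 6 were lower and 0 higher by edgeR, and by DESeq2 4 were lower. Of all genes tested in brain, 8.03% were lower and 7.4% higher unadjusted by edgeR. By DESeq2 2.01% were lower and 1.82% higher at an adjusted p under 0.05. These shares stand beside the brain counts of each list that follows. The 22 precursors include genes also made outside the hypothalamus, such as Npy. Which brain region their counts came from was not tested. Tac2, the neurokinin B precursor, was at 8, 6.57 and 10.2 CPM in old control and 0.896, 1.29 and 2.58 CPM in SeMSNs libraries (log2 fold change −2.40 ± 0.423, adjusted p 0.251 by the edgeR quasi-likelihood test). Here old control library 2 stayed with the other controls, unlike for the 9 genes above. Pdyn, the dynorphin precursor, was at 53.0, 18.9 and 90.6 CPM against 4.98, 5.37 and 14.8 CPM (−2.70 ± 0.673, edgeR adjusted p 0.255). Crh, the corticotropin-releasing hormone precursor, was at 5.83, 2.29 and 5.17 CPM against 1.79, 0.671 and 1.77 CPM (−1.67 ± 0.494, edgeR adjusted p 0.260). Npy, made in arcuate neurons and in cortical interneurons, was at 38.8, 30.3 and 32.5 CPM against 10.4, 10.5 and 26.3 CPM (−1.13 ± 0.396, edgeR adjusted p 0.280), with SeMSNs library 3 close to the controls.

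Of 17 receptor genes for the peptides, 16 were in the table and 10 passed the filter. None passed the adjusted threshold by edgeR, 5 were lower and 0 higher unadjusted, 1 was lower by DESeq2, and the median log2 fold change was −1.29. Mc3r, a melanocortin receptor bound by products of Pomc and by Agrp, was at 1.56, 0.686 and 3.15 CPM in old control and 0.224, 0 and 0.215 CPM in SeMSNs libraries (−3.57 ± 0.879, edgeR adjusted p 0.255, DESeq2 adjusted p 0.00956). Mc3r passed the filter on low counts through its old control libraries. The counts and the median of the receptors therefore describe the list and do not test it. Oxtr, the oxytocin receptor, was at 4.33, 7.08 and 12.2 CPM against 2.02, 2.46 and 4.78 CPM (−1.37 ± 0.485, edgeR adjusted p 0.282). Trhr2, a receptor for the Trh product, had a log2 fold change of −1.61 ± 0.580 and Galr1, a galanin receptor, of −1.81 ± 0.686. SeMSNs library 3 was above old control library 1 for Oxtr, so its groups overlapped. Among receptors named after their values were seen, the hypocretin receptors Hcrtr1 and Hcrtr2 had log2 fold changes of −0.25 ± 0.251 and −0.08 ± 0.289 and the melanocortin receptor Mc4r of −0.10 ± 0.718.

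Genes for cutting and packing the precursors were compared next. Of 16 processing and granule genes, 16 passed the filter and 0 passed the adjusted threshold by edgeR. Unadjusted, 5 were lower and 1 higher, DESeq2 called 1 in each direction, and the median log2 fold change was −0.18. Scg2, a granule protein, was at 590, 402 and 718 CPM in old control and 302, 296 and 326 CPM in SeMSNs libraries (−0.92 ± 0.2, edgeR adjusted p 0.255). Pcsk2, a prohormone convertase, was at 439, 419 and 361 CPM against 236, 297 and 325 CPM (−0.54 ± 0.170, edgeR adjusted p 0.265), and Pam, the amidating enzyme, had a log2 fold change of −0.66 ± 0.209 (edgeR adjusted p 0.268). Old control library 2 had Pcsk2 and Pam levels like those of the other controls. Cadps2, a granule release factor that is also abundant in cerebellum, was at 97.4, 89.0 and 71.9 CPM in old control and 204, 205 and 103 CPM in SeMSNs libraries (0.94 ± 0.276, edgeR adjusted p 0.260), highest in the libraries with high cerebellar markers. Of 6 peptidase genes, 1 was lower unadjusted and the median log2 fold change was 0.14. With 8.03% of all genes lower unadjusted, 1 gene in so short a list describes that gene only. By DESeq2 1 was lower, and 0 passed the adjusted threshold by edgeR. The gene lower unadjusted was Mme, or neprilysin, a peptidase of the cell surface, at −1.80 ± 0.571.

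Transcription factors that mark developing and adult hypothalamic neurons were examined beside the peptides. Of 15 such genes 7 passed the filter, 0 passed the adjusted threshold by edgeR, 4 were lower and 0 higher unadjusted, and the median log2 fold change was −2.87. By DESeq2 5 were lower and 0 higher. The log2 fold change was negative for 5 of the 7 and positive for 2, Lhx9 and Foxb1. Lhx9 was at 8.94, 9.94 and 3.21 CPM in old control and 9.29, 13.0 and 16.7 CPM in SeMSNs libraries (0.78 ± 0.456, edgeR adjusted p 0.443), and Foxb1 had a log2 fold change of 1.15 ± 0.538 (edgeR adjusted p 0.358). Tbx3 was at −0.13 ± 0.303 (edgeR adjusted p 0.852). Sim1, a factor of the paraventricular and supraoptic nuclei where Oxt, Avp and Trh are made, was at 4.11, 0.514 and 4.05 CPM in old control and 0, 0.168 and 0 CPM in SeMSNs libraries. Otp, needed in the same lineages, was at 7.11, 0.457 and 8.38 CPM against 0.728, 0.447 and 0.0538 CPM. Nkx2-1, a ventral hypothalamic factor, was at 4.11, 0.857 and 5.34 CPM against 0.0560, 0.0559 and 0.269 CPM, with a log2 fold change of −4.69 ± 0.899. For these 3 factors old control library 2 was the lowest control, and Otp in it lay among the SeMSNs libraries. Fezf1, a factor of the ventromedial hypothalamus, had 49, 3 and 55 counts in old control and 0 in each SeMSNs library. Isl1, a factor of arcuate and of striatal neurons, had a log2 fold change of −5.16 ± 1.13, and Six3, which is also in the striatal marker list, of −2.87 ± 0.715. Nkx2-1 and Isl1 passed the filter on low counts through their old control libraries. The counts and the median of the factors therefore describe the list and do not test it. Sim1 was not limited to brain: kidney libraries held 14.4 to 26.2 CPM, above every brain library. Its log2 fold change was −0.10 ± 0.191 in kidney. In gastrocnemius it was −3.73 ± 0.869 (edgeR adjusted p 0.292, DESeq2 adjusted p 0.0223). Sim1, Fezf1, Lhx9, Foxb1 and Tbx3 were named after their values were seen.

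Of 8 receptors for hormones and peptides of energy balance, 8 were tested, 0 passed the adjusted threshold, 2 were lower unadjusted and 0 higher by edgeR, 2 were lower by DESeq2, and the median log2 fold change was −0.80. Lepr, the leptin receptor, was at 3.89, 5.14 and 5.23 CPM against 3.08, 2.07 and 1.88 CPM (−1.06 ± 0.269, edgeR adjusted p 0.255). Cckar, a cholecystokinin receptor, had a log2 fold change of −3.02 ± 0.911 (edgeR adjusted p 0.262). Its groups overlapped, with old control library 2 at 0.4 CPM and SeMSNs library 1 at 0.56 CPM. Lower values were not limited to brain. Lepr was at −0.66 ± 0.272 in kidney (edgeR adjusted p 0.772) and −0.95 ± 0.396 in gastrocnemius (edgeR adjusted p 0.37). Cckar was at −0.94 ± 0.339 in kidney (edgeR adjusted p 0.772).

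Summed levels of marker genes moved with the peptides between libraries as follows. The 9 peptide genes summed to 190, 21.6 and 212 CPM in old control libraries 1, 2 and 3 and to 5.82, 2.12 and 5.00 CPM in SeMSNs libraries. The 15 hypothalamic factors summed to 61.4, 20.6 and 63.8 CPM against 17.4, 19.5 and 23.9 CPM, with old control library 2 among the SeMSNs libraries. That place depends on Lhx9: without it, a choice made after seeing the data, the other 14 factors summed to 52.5, 10.7 and 60.6 CPM against 8.12, 6.43 and 7.20 CPM, and old control library 2 was above all 3 SeMSNs libraries. The 10 striatal markers summed to 1096, 365 and 1178 CPM against 277, 342 and 204 CPM, again with old control library 2 close to the SeMSNs libraries. The 10 general neuronal markers summed to 7006, 7249 and 6425 CPM against 6715, 6364 and 6530 CPM, in overlapping groups. Markers of other regions had other orders of the libraries. Cortical and hippocampal markers summed to 777, 902 and 715 CPM in old control and 378, 428 and 721 CPM in SeMSNs libraries, and thalamic markers to 400, 204 and 151 CPM against 223, 231 and 190 CPM. Choroid plexus markers summed to 711, 716 and 551 CPM against 925, 191 and 46.0 CPM. Cerebellar markers were high in SeMSNs libraries 1 and 2 alone, and SeMSNs library 3, at 68.2 CPM, had peptide levels as low as theirs. The part that these marker differences have in the peptide difference was not tested.

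**Figure D3:**
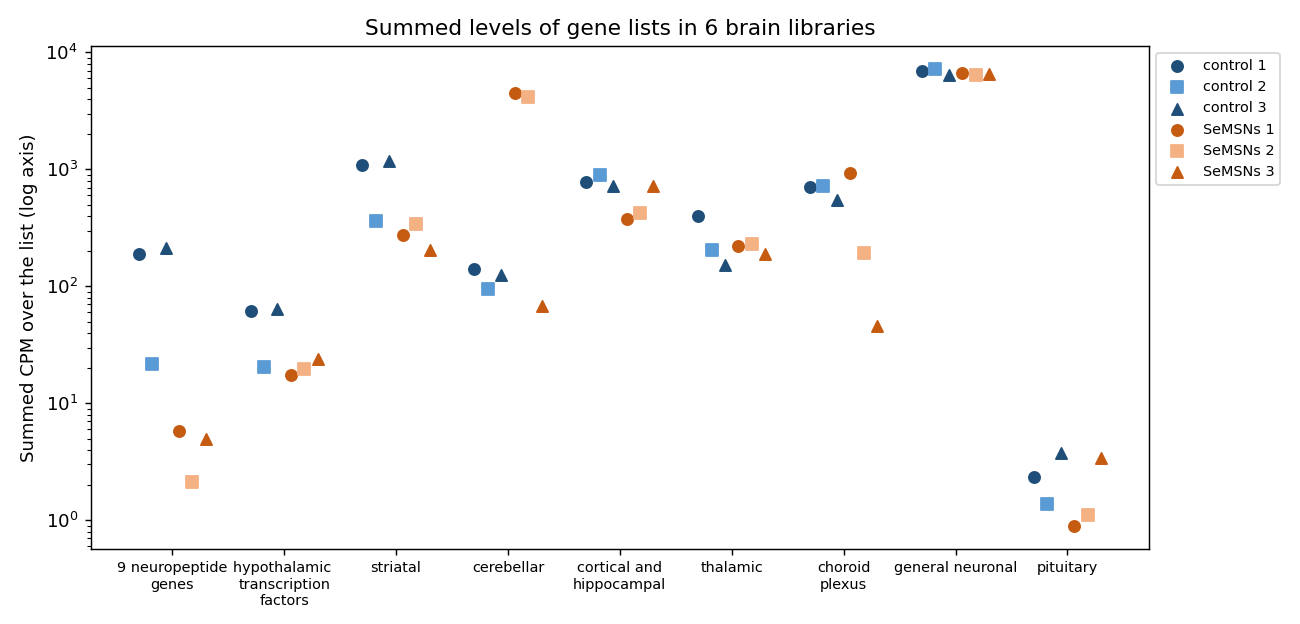
Summed CPM of the neuropeptide genes and of each marker list in every brain library on a log axis, with old control and SeMSNs libraries marked separately. The neuropeptide sum lies at 3 levels, 190 and 212 CPM in old control libraries 1 and 3, 21.6 CPM in old control library 2 and 2.12 to 5.82 CPM in SeMSNs libraries, while general neuronal markers stay between 6364 and 7249 CPM.

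The genes whose levels were most like the mean of the 9 over the 6 brain libraries were Six3os1 (Pearson r 0.995), Pde7b (0.995), Oprk1 (0.994), Rrad (0.992), Arhgap36 (0.991), Fndc9 (0.990), Tmc4 (0.989), Prkch (0.988), Kremen1 (0.987) and Spcs3 (0.987), on log2(CPM + 0.5). Old control libraries 1 and 3 stand apart on this mean and largely set r. All genes of a library share its total and its piece of brain, so the coefficients describe likeness only. Oprk1, the kappa opioid receptor bound by dynorphin, was at 21.2, 5.94 and 30.9 CPM in old control and 3.70, 3.02 and 3.39 CPM in SeMSNs libraries. Six3os1, a noncoding transcript beside the forebrain factor gene Six3, was at 12.6, 2.06 and 13.7 CPM against 0.896, 0.95 and 0.86 CPM. Spcs3, a subunit of the signal peptidase, spanned only 65.7 to 70.9 CPM.

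Kidney and gastrocnemius showed whether the peptide genes were measured outside brain. In each of these tissues 41 of the 54 values, 9 genes in 6 libraries, were at 0. Pmch, Oxt and Avp had no count in any of the 12 libraries. In kidney, Hcrt was also at 0 throughout, Agrp had 0, 0 and 0 counts in old control and 1, 5 and 3 in SeMSNs libraries, and Pomc had 4, 0 and 2 against 3, 5 and 1. No peptide gene passed the filter in kidney, where 0.00664% of all tested genes passed in the lower direction and 0% in the higher direction by edgeR. In gastrocnemius Agrp was the exception, with 65, 32 and 7 counts in old control and 22, 1 and 19 in SeMSNs libraries, in overlapping groups. In muscle its log2 fold change of −1.22 ± 0.944 (SE) had an edgeR quasi-likelihood adjusted p of 0.591, where 0.0228% of all tested genes passed in the lower direction. Counts of Agrp in 5 of 6 muscle libraries were above those of the 4 low brain libraries, and the overlap of its annotation with Ctcf and Gm5914 applies there too.

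**Figure D4:**
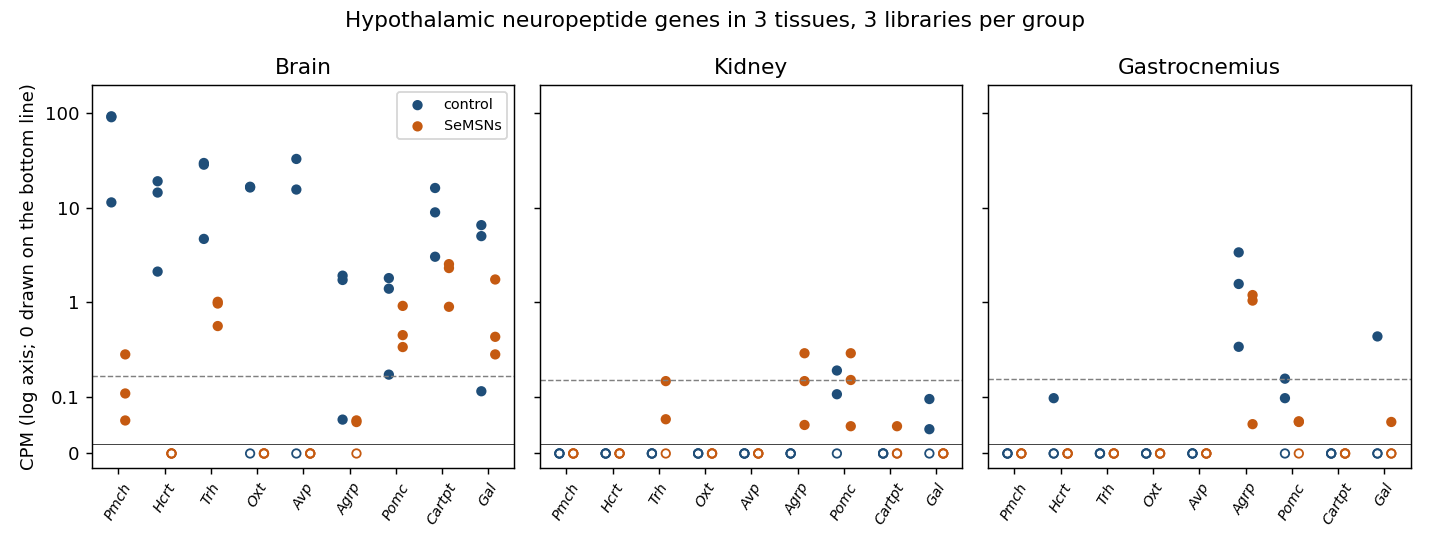
CPM of each neuropeptide gene in the 18 libraries, by tissue and group, on a log axis, with open symbols at 0 below the axis break and a dashed line at the 3-count floor of each tissue. Pmch, Oxt and Avp have no count in kidney or gastrocnemius, while Agrp has 1 to 65 counts in each gastrocnemius library.

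The old control brain was set against the other old control tissues in a fit of the 9 control libraries. Against kidney, 36.9% of 17252 tested genes were higher in brain, and 5 of the 9 peptide genes were in the fit and 5 were called. Pmch, Hcrt, Trh and Cartpt had passed its filter through the brain libraries, and Agrp through brain and gastrocnemius libraries together, so that count describes them only. With 3 counts per library as the floor for libraries at 0, Pmch was at least 448-fold higher in brain than in kidney, Trh at least 145-fold, Avp at least 111-fold, Hcrt at least 81.8-fold and Oxt at least 75.9-fold. Against gastrocnemius 39.4% of all genes were higher in brain and 4 of the 5 peptide genes in the fit were called. Agrp was the gene not called, at a log2 difference of −1.66 ± 1.04 (SE, brain minus gastrocnemius) and an edgeR quasi-likelihood adjusted p of 0.182.

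Avp from the brain acts on the kidney, so kidney genes listed for the vasopressin response were set beside it. All 10 such genes passed the filter in kidney, 0 passed the adjusted threshold by edgeR or DESeq2 and 0 were under an unadjusted p of 0.05 by edgeR. Of all kidney genes, 2.52% were higher and 3.59% lower unadjusted by edgeR, and DESeq2 called 0.032% higher and 0.0868% lower. Their median log2 fold change was −0.10, against 0.00 for all genes. Aqp2, the vasopressin-regulated water channel, was at −0.43 ± 0.186 (SE), with an edgeR quasi-likelihood adjusted p of 0.772, and Avpr2, the kidney vasopressin receptor, was at −0.03 ± 0.394, with an adjusted p of 0.990. The summed level of the 10 genes was 4951, 5634 and 4268 CPM in old control and 5546, 3136 and 6243 CPM in SeMSNs kidney libraries, in overlapping groups.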

How the data were processed

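PolyA RNA was measured in 18 libraries. The authors deposited 1 table with whole-number counts per gene and with FPKM, counts per gene length and library total. Per the submitters' processing notes the build was GRCm38. Aligner, counting tool, annotation and strand setting were not stated. The deposited columns give SeMSNs library 3 the number 4. The genes and lists were chosen with earlier results of these data known.

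CPM were computed from deposited counts. Each tissue was fitted alone with edgeR 4.0.16 in R 4.3.3 (filterByExpr, minimum count 10 and total 15, TMM, glmQLFit, glmQLFTest, Benjamini-Hochberg adjustment, threshold 0.05), after the fit was tested on simulated data. The standard error is the absolute log2 fold change over the square root of F. The text names the 9 peptide genes, up to 4 genes of smallest p in each list, and the 10 genes of highest likeness, leaving out predicted names; others were chosen after their values were seen. Alternatives were DESeq2 1.42.0, limma 3.58.1 on log2(FPKM + pseudocount), no filter, a replicate block and leaving out libraries. All 18 pairs of libraries of 1 group and tissue differed beyond sampling noise.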

Additional observations from a re-analysis of the deposited data

Results flagged for a closer look

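Agrp lay on opposite sides of the old control mean in brain and kidney. Every SeMSNs kidney library was above the old control kidney mean, at 1, 5 and 3 counts against 0, 0 and 0, with a mean of 0.161 CPM, while every SeMSNs brain library was below the old control brain mean. The difference between the tissues was not tested, and the kidney values lie near the 3-count floor. The overlap of the Agrp annotation with Gm5914 applies here too. Gm5914 had 6, 4 and 3 counts in old control and 6, 9 and 8 in SeMSNs kidney libraries.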

How the results depend on the processing

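The 6 tested peptide genes had a negative log2 fold change in brain under every alternative run. The median over the peptide genes that entered each fit was −3.48 over 6 genes in the main test, −5.08 over 9 genes by DESeq2 and −4.83 over 9 genes with no filter. With 1 library left out it ran from −5.40, over 9 genes without old control library 2, to −3.20, over 6 genes without old control library 3, so the medians are not over the same genes. The 5 genes without overlap became 5 to 9 with 1 library left out, 9 without old control library 2. Brain calls over all genes were 327 higher and 362 lower by DESeq2, 1 lower with the replicate block, and 0 higher without both SeMSNs libraries 1 and 2. With 1 library left out they ran from 0 to 1444 higher and 0 to 1408 lower, with 1444 and 1408 without SeMSNs library 3 and 20 lower without old control library 2. Kidney calls were 7 higher and 19 lower by DESeq2, 1 higher and 4 lower with no filter, 0 lower by limma with either pseudocount, 0 lower with the replicate block, and 0 to 1 higher and 0 to 3 lower with 1 library left out. Gastrocnemius calls were 40 higher and 131 lower by DESeq2, 1 higher by limma with either pseudocount, 2 higher and 29 lower with no filter, and 0 to 138 higher and 0 to 197 lower with 1 library left out, highest without old control library 3. Peptide genes higher in old control brain than in kidney were 9 with no filter and 5 to 9 with 1 library left out; against gastrocnemius they were 7 and 4 to 8. The causes were not tested. The replicate numbers were not taken as pairs: residuals of same-numbered brain libraries correlated at −0.0634 to 0.108, and 1 of 3 pairs was over 0.1. With the replicate block the adjusted p of Pmch was 0.0407 by edgeR. Depth limits Oxt, Avp, Agrp and Hcrt, for which a SeMSNs library held at most 1 count.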

Other observations

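Gal is made in the noradrenergic neurons of the locus coeruleus as well as in the hypothalamus, and markers of those neurons were looked at after the Gal values were seen. Dbh, the enzyme that makes noradrenaline, had 12, 5 and 9 counts in old control brain libraries 1, 2 and 3 and 213, 26 and 8 in SeMSNs libraries 1, 2 and 3. Slc6a2, the noradrenaline transporter, had 1, 1 and 2 counts against 186, 19 and 0. Both genes were highest in SeMSNs library 1, which also held the most Gal of the SeMSNs libraries, at 31 counts. Gal in old control libraries 1 and 3, at 118 and 89 counts, was high beside low Dbh. Th, the first enzyme of catecholamine synthesis and also made by dopamine neurons, had 201, 248 and 507 counts against 220, 220 and 76, in overlapping groups. The Dbh log2 fold change was 3.16 ± 1.20 (SE), with an edgeR quasi-likelihood adjusted p of 0.295. Which neurons the Gal counts of any library came from was not tested.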
